A study of Rattus norvegicus with 12 samples.

Results

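The let-7 family guide strands are the mature 5p microRNAs that carry the let-7 seed, and in rat serum they were represented by 9 names: rno-let-7a-5p, rno-let-7b-5p, rno-let-7c-5p, rno-let-7d-5p, rno-let-7e-5p, rno-let-7f-5p, rno-let-7g-5p, rno-let-7i-5p and rno-miR-98-5p. They were picked by name from a table of 752 mature microRNA names, and where a name had copies at several loci the copies were summed. No measured value entered this rule, but the members were chosen with earlier results of these data known. All 9 passed the filter on low values that left 366 names to test. Small RNA of serum was sequenced from male Sprague-Dawley rats (Jcl:SD) aged 7 weeks, in 12 libraries of 4 groups with 3 libraries each. Control rats received sterile distilled water. The caffeine group received 180 mg/kg caffeine, a stimulant that blocks adenosine receptors. The dextromethorphan group, given a cough suppressant that acts on NMDA receptors among other targets, received 200 mg/kg dextromethorphan hydrobromide monohydrate. The group given both drugs received the same 2 doses, with dextromethorphan following caffeine by 1 h. Each drug was a single oral dose, and blood was drawn under anaesthesia 1 h after dextromethorphan. The design names 5 rats per group, and the labels do not state that each library is a separate animal, so the p-values below measure the spread between libraries, part of which may be technical.

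MicroRNAs of the let-7 family are short RNAs that guide an Argonaute protein to messenger RNAs with sites complementary to the seed, the stretch near the 5′ end of the microRNA, and so lower the output of those messages. The family is known for its rise during differentiation, for targets that include Lin28, Hmga2 and Ras genes, and for the block that the RNA-binding protein LIN28 places on the processing of its precursors. In adult tissues and in blood the guide strands are abundant, and circulating copies are carried in vesicles and in protein complexes and come from many cell types.

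The mature sequences are shown because they set out how nearly alike the 9 guides are, which bears on how well short reads can tell them apart. They are given 5′ to 3′ from RefSeq (build GRCr8), with the seed, bases 2 to 8, in capitals.
rno-let-7a-5p: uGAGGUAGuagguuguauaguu
rno-let-7b-5p: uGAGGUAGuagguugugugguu
rno-let-7c-5p: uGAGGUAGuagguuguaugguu
rno-let-7d-5p: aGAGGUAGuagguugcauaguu
rno-let-7e-5p: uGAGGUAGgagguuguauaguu
rno-let-7f-5p: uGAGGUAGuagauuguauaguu
rno-let-7g-5p: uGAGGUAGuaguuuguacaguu
rno-let-7i-5p: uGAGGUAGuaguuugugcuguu
rno-miR-98-5p: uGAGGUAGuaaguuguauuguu
All 9 guides are 22 bases long and share 1 seed, and among the 685 of 752 names that could be matched to a reference sequence no other name carries it. With positions counted from 1 at the 5′ end and let-7a as the reference, let-7c differs by A19G, let-7e by U9G and let-7f by G12A. The guide let-7b differs from let-7a by A17G and A19G, let-7d by U1A and U16C, let-7g by G12U and U18C, and miR-98 by G11A and A19U. The most distant from let-7a is let-7i, with G12U, A17G, U18C and A19U. Only let-7d starts with another base than the rest, and no guide differs from let-7a within the seed.

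The deposited values are FPKM, read counts scaled to the length of the mature microRNA and to the reads assigned to all listed microRNAs, so each level is relative to the rest of its library. In the rn6 coordinates of the deposited table the 9 guides lie at 12 loci, all annotated as mature microRNAs on the plus strand. The let-7e guide lies at chr1:59704395-59704416, 173 bases downstream of the start of miR-99b-5p and 446 bases upstream of that of miR-125a-5p. The let-7a, let-7f and let-7d guides share a cluster at chr17:16417865-16417886, chr17:16418228-16418249 and chr17:16419993-16420014. A second copy of let-7a lies at chr8:45753280-45753301, and a second copy of let-7f at chrX:21583279-21583300, 611 bases from miR-98 at chrX:21583890-21583911. The let-7c guide has copies at chr11:16052888-16052909, downstream of miR-99a-5p, and at chr7:126590225-126590246, 408 bases from let-7b at chr7:126590633-126590654. The let-7i guide at chr7:66802736-66802757 and the let-7g guide at chr8:114874463-114874484 have no other member nearby. The copies of let-7a took 49.8% to 50.2% of its FPKM each and those of let-7c 49.7% to 50.3%, so for these guides the table does not say which locus the serum RNA came from.

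Reads assigned to the listed microRNAs, recovered from the steps of the FPKM values, numbered 1304868 to 2625593 in control libraries, 1504963 to 1842796 with caffeine, 403913 to 895792 with dextromethorphan and 758290 to 1160717 with both drugs. Depth therefore differs with the groups, and the dextromethorphan libraries DEX2 and DEX3 are the shallowest. A red-cell measure was taken from 2 microRNAs as log2 of miR-451-5p, enriched in red cells, over miR-23a-3p. It was -7.79 to -7.09 in control, -7.09 to -6.39 with caffeine, -6.46 to -5.12 with dextromethorphan and -6.42 to -5.66 with both drugs, and was highest in DEX2 and DEX3. Of the 5 erythrocyte names listed, 4 were matched in the table. Together they held 9.51% to 9.91%, 8.99% to 9.58%, 9.96% to 12.3% and 9.72% to 13.0% of reads in the same order of groups. The share was mostly miR-16-5p. On the log2 scale of the tests below its control mean was 22.06, beside 10.92 for miR-451-5p, 9.75 for miR-144-5p and 7.67 for miR-144-3p. In that order the means were 22.00, 11.58, 10.01 and 7.82 with caffeine and 22.30, 12.71, 11.38 and 9.57 with dextromethorphan. With both drugs they were 22.34, 12.04, 10.19 and 7.92. The joint share therefore says little about the scarcer names. The 3 platelet names held 6.35% to 7.08%, 5.47% to 6.57%, 4.35% to 5.80% and 5.55% to 7.54%. Most of that share was miR-223-3p, at 21.51 on the same log2 scale in control, beside 17.28 for miR-21-5p and 15.97 for miR-126a-3p. With dextromethorphan the mean of miR-223-3p was lower, at 20.86, while those of miR-21-5p (17.84) and miR-126a-3p (17.38) were higher. The 5 leukocyte names held 1.83% to 2.74%, 3.20% to 5.62%, 2.52% to 4.14% and 5.16% to 7.98%. Among them miR-150-5p (18.77 in control, 20.97 with both drugs), miR-146a-5p (17.38, 19.27) and miR-155-5p (13.59, 15.48) had higher means with both drugs. Those of miR-142-5p (18.05, 18.07) and miR-142-3p (16.07, 16.20) differed little. With dextromethorphan miR-142-3p was at 17.03 and miR-142-5p at 17.85. The 3 hepatocyte names held 1.87% to 5.11%, 6.92% to 11.1%, 6.73% to 15.8% and 7.79% to 10.5%. None of the matched markers was at 0 in any group, serum RNA mixes these sources, and their part in the let-7 results was not tested beyond a fit with the red-cell measure as a covariate. In such bulk RNA, fewer cells of a type that releases a microRNA and less of it released per cell cannot be told apart.

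The let-7 guides together made up 10.8%, 9.30% and 13.7% of assigned reads in control libraries ctrl1, ctrl3 and ctrl5. With caffeine they made up 8.50%, 8.76% and 10.3% in CAF3, CAF4 and CAF5. With dextromethorphan they made up 10.5%, 11.1% and 16.7% in DEX1, DEX2 and DEX3, and with both drugs 7.62%, 13.2% and 12.4% in CAFDEX2, CAFDEX3 and CAFDEX6. The lowest and the highest shares came from treated libraries, and every treated group overlapped the controls. The group means were 11.3% ± 2.24 in control, 9.19% ± 0.985 with caffeine, 12.8% ± 3.40 with dextromethorphan and 11.1% ± 3.02 with both drugs (SD, n = 3 each).

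Since all 9 guides have the same length, their shares of reads compare their levels per length as well. Over the 12 libraries let-7c averaged 3.97% of assigned reads and ranked 6 among the 752 names by mean FPKM, and let-7b averaged 3.48% and ranked 7. Next came let-7i at 1.31%, let-7a at 0.995% and let-7f at 0.883%, ranks 14, 18 and 19. The remaining members were let-7g at 0.265%, let-7d at 0.116%, let-7e at 0.0462% and miR-98 at 0.0113%, ranks 39, 52, 81 and 136. The mean of let-7c was thus 351 times that of miR-98, although both carry the same seed.

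The order of levels was nearly the same in every library, as the plot of levels by library shows. The steps from let-7b down to let-7i, from let-7f to let-7g, from let-7g to let-7d, from let-7d to let-7e and from let-7e to miR-98 held in 12 of 12 libraries. The other neighbours exchanged places once each: let-7b exceeded let-7c in CAF4, let-7a exceeded let-7i in CAFDEX3, and let-7f exceeded let-7a in ctrl5. The ratio of let-7c to let-7b was 1.14 ± 0.0873 (SD, n = 12), that of let-7a to let-7f 1.15 ± 0.128 (SD, n = 12) and that of let-7i to let-7a 1.37 ± 0.305 (SD, n = 12). Over libraries these ratios ran from 0.992 to 1.34, from 0.911 to 1.34 and from 0.947 to 1.95, and in each pair the higher member led in 11 of 12 libraries. The most even member was let-7g, whose coefficient of variation over the 12 libraries was 14.0%, followed by let-7d at 16.8%. The least even were let-7f at 38.3% and let-7e at 35.6%. The scarcest guide, miR-98, rested on 68 to 282.5 recovered reads per library, while let-7e rested on 181.25 to 933.33.

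**Figure D1:**
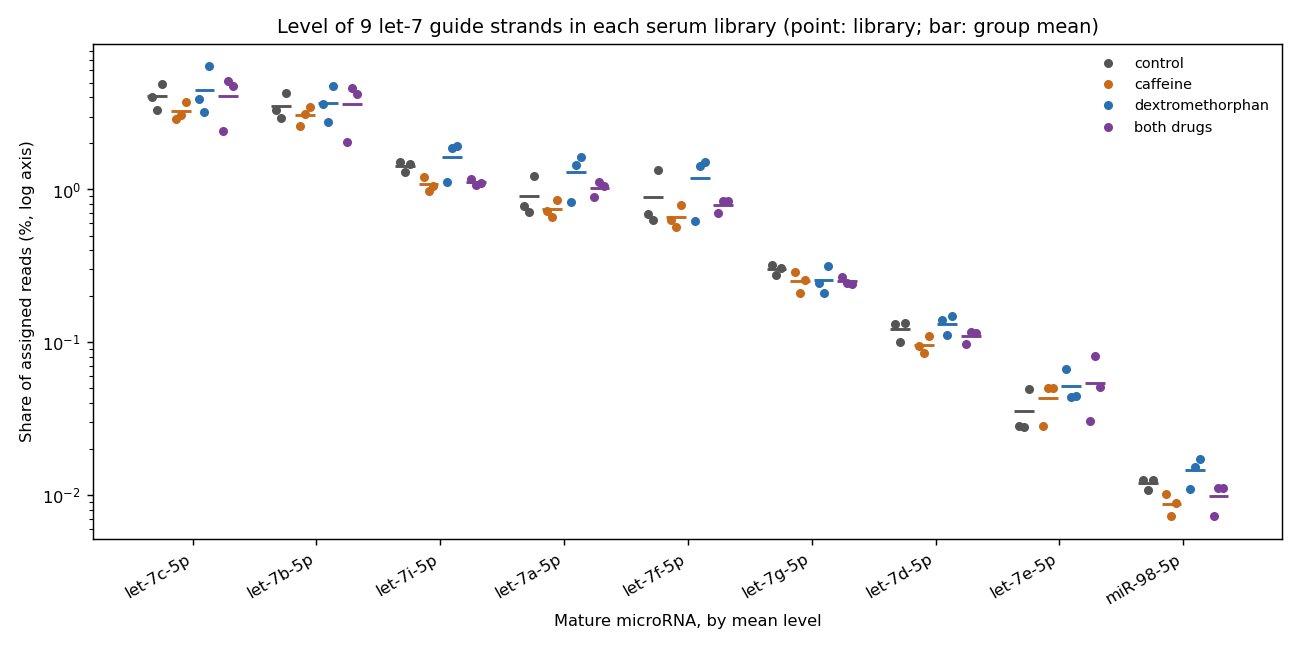
Share of assigned reads (%, log axis) of each of the 9 guides, by mean level from left to right; points are libraries coloured by group, and bars are group means (n = 3). The members span from 3.97% for let-7c to 0.0113% for miR-98, and the order of neighbours by mean held in 11 or 12 of 12 libraries.

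The composition of the family does not depend on how a library is scaled. The guides let-7b and let-7c together made up 66.9% of the family's FPKM over the 12 libraries. In control libraries their joint share stayed within 66.9% to 67.8% (67.2% ± 0.495, SD, n = 3). With dextromethorphan it was 71.2%, 53.9% and 66.6% in DEX1, DEX2 and DEX3, and with both drugs it was 58.5%, 73.6% and 72.3% in CAFDEX2, CAFDEX3 and CAFDEX6. DEX2 and CAFDEX2 thus had the lowest joint shares of these guides of all libraries, and the groups given dextromethorphan spread far wider than the controls. The caffeine group stood at 68.4% ± 3.02 (SD, n = 3). The guides let-7a, let-7f and let-7i filled the difference. They made up 29.0% of the family on average, 42.6% in DEX2, 36.2% in CAFDEX2 and 22.9% in CAFDEX3. The 4 scarce members, let-7d, let-7e, let-7g and miR-98, made up 4.08% together, with a range of 3.14% to 5.29%.

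Ratios between members varied less than their levels in some pairs, such as let-7b and let-7c, but not in all. The ratio of let-7g to let-7i was 0.210 ± 0.00114 in control (SD, n = 3), 0.233 ± 0.0153 with caffeine and 0.226 ± 0.00661 with both drugs. With dextromethorphan it was 0.165 ± 0.0523, from 0.113 to 0.218. Over the 12 libraries its highest value was 2.14 times its lowest, beside 1.52 times for the level of let-7g and 1.95 times for that of let-7i. These guides lie on different chromosomes and differ in sequence by A17G and A19U, and their ratio was lowest in the dextromethorphan libraries in which let-7i was highest. The ratio of let-7b to let-7c was 0.883 ± 0.0649 over all libraries (SD, n = 12), from 0.744 to 1.01. Its highest value was 1.36 times its lowest, beside 2.33 times for the level of let-7b and 2.63 times for that of let-7c. The differences between groups in these shares and ratios are descriptions and were not tested.

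**Figure D2:**
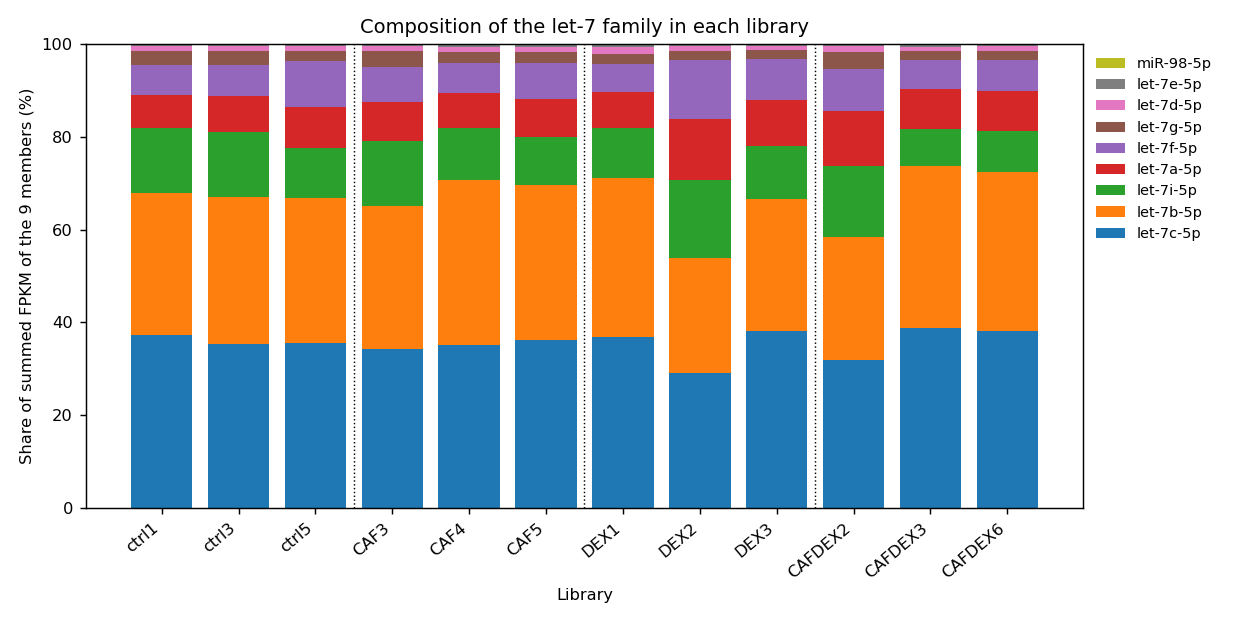
Share of the family's FPKM (%) held by each guide, 1 stacked bar per library, grouped by treatment. In control libraries let-7b and let-7c hold 66.9% to 67.8%, while DEX2 (53.9%) and CAFDEX2 (58.5%) show larger parts of let-7a, let-7f and let-7i.

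The first comparison asked how the let-7 guides in serum differed between caffeine and vehicle. Fold changes are given on the log2(FPKM + 40) scale with their standard error (SE), and p-values are from limma, a linear model fitted over all 366 names, adjusted by Benjamini-Hochberg. Of the abundant guides, let-7c averaged 4.06% ± 0.785 of reads in control and 3.24% ± 0.440 with caffeine (SD, n = 3), and let-7b averaged 3.52% ± 0.701 and 3.06% ± 0.417. For let-7c the shares of reads were 4.03%, 3.29% and 4.86% in control and 2.90%, 3.08% and 3.74% with caffeine. For let-7b they were 3.31%, 2.95% and 4.30% in control and 2.62%, 3.10% and 3.45% with caffeine. Control and caffeine libraries overlapped for both guides, since ctrl3 lay below CAF5. The log2 fold change was -0.32 ± 0.31 (SE) for let-7c, with a 95% interval of 0.511 to 1.26 on the ratio, and -0.19 ± 0.30 for let-7b, with an interval of 0.559 to 1.37; the limma adjusted p-values were 0.569 and 0.737.

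Among members of intermediate level, let-7i had shares of 1.52%, 1.30% and 1.46% in control and 1.2%, 0.983% and 1.06% with caffeine. All 3 caffeine libraries lay below all 3 controls. The log2 fold change was -0.40 ± 0.23 (SE; limma adjusted p = 0.287), with a ratio between 0.537 and 1.06. The guide let-7a had 0.777%, 0.713% and 1.23% in control and 0.723%, 0.665% and 0.853% with caffeine, and let-7f had 0.694%, 0.630% and 1.35% in control and 0.631%, 0.571% and 0.793% with caffeine. For both, ctrl5 stood well above the other controls and the groups overlapped. Their log2 fold changes were -0.24 ± 0.28 and -0.35 ± 0.34 (SE), with limma adjusted p-values of 0.652 and 0.569.

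The scarce members gave the extremes. For miR-98 the shares were 0.0127%, 0.0108% and 0.0126% in control and 0.0102%, 0.00727% and 0.00890% with caffeine. Again no caffeine library reached the lowest control. The log2 fold change of miR-98 was -0.46 ± 0.29 (SE; limma adjusted p = 0.351), the lowest value of any member against control. For let-7g the shares were 0.321%, 0.275% and 0.306% in control and 0.291%, 0.212% and 0.256% with caffeine, and for let-7d they were 0.131%, 0.101% and 0.134% against 0.0944%, 0.0848% and 0.111%. These groups overlapped, with log2 fold changes of -0.26 ± 0.23 and -0.33 ± 0.23 (SE). The guide let-7e went the other way, with 0.0284%, 0.0279% and 0.0498% in control, 0.0284%, 0.0506% and 0.050% with caffeine, and a log2 fold change of 0.29 ± 0.37 (SE). In each of these groups 1 or 2 libraries of let-7e stood near 0.05% and the rest near 0.028%.

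In all, 0 of 9 members passed the adjusted threshold of 0.05 for caffeine against control, beside 7.92% of the 366 names tested (29 names). An unadjusted p below the threshold was found for 0 members and for 91 of the 366 names. In limma 8 of 9 members had a value below 0, with a median log2 fold change of -0.32, while the median over all names tested was 0.19. The 9 members kept the sign of their caffeine difference in all 234 values under the alternatives run. These alternatives reuse the same libraries, and some values lay close to 0, such as -0.0033 for let-7a and -0.0063 for let-7f. For 2 of 9 members, let-7i and miR-98, all 3 caffeine libraries lay below all 3 controls, and 24 names (6.56%) of the 366 did so.

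**Figure D3:**
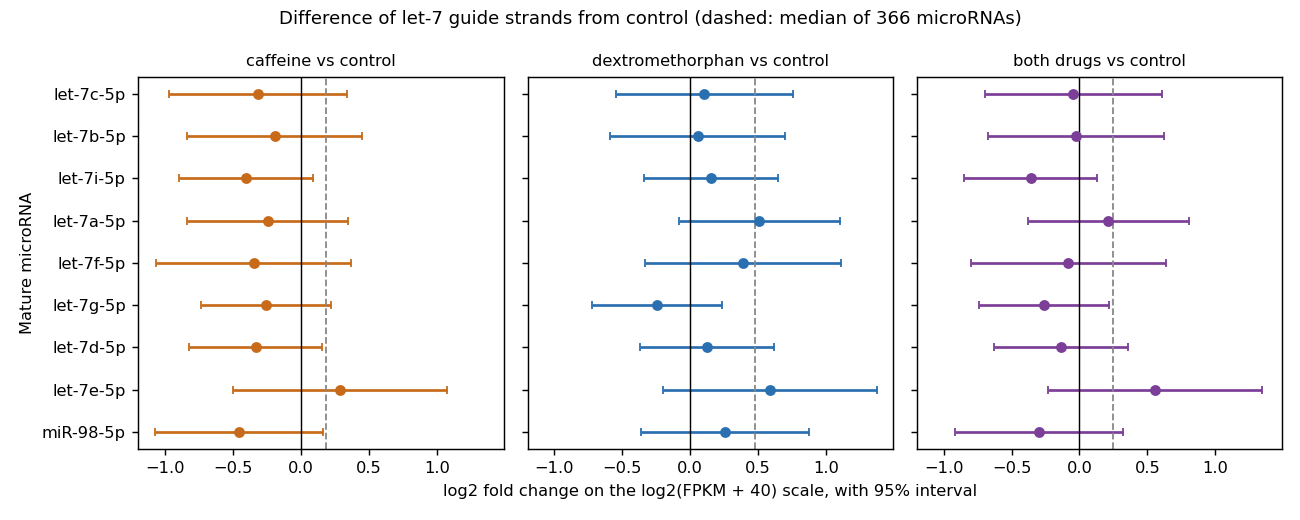
Log2 fold change of each guide from control on the log2(FPKM + 40) scale, with its 95% interval from limma, for caffeine, dextromethorphan and both drugs (3 libraries against 3); the dashed line is the median of the 366 names tested. All 27 intervals include 0. With dextromethorphan the sign of 7 members depends on the scaling or on the libraries included.

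The second comparison set dextromethorphan against vehicle. The guides let-7a, let-7f and let-7i were high in DEX2 and DEX3 and near the controls in DEX1. For let-7a the shares of reads were 0.834%, 1.44% and 1.63% in DEX1, DEX2 and DEX3, against 0.713% to 1.23% in control. For let-7f they were 0.624%, 1.41% and 1.50% against 0.630% to 1.35% in control. For let-7i they were 1.12%, 1.86% and 1.92%, against 1.30% to 1.52% in control. All 3 guides overlapped the controls through DEX1, which for let-7f and let-7i lay below every control. The log2 fold changes were 0.51 ± 0.28 for let-7a, 0.39 ± 0.34 for let-7f and 0.15 ± 0.23 for let-7i (SE), with limma adjusted p-values of 0.195, 0.426 and 0.637.

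The same split within the group appeared in miR-98, at 0.0111%, 0.0153% and 0.0173% in DEX1, DEX2 and DEX3 against 0.0108% to 0.0127% in control. It did not appear in let-7b and let-7c. For let-7b the shares were 3.61%, 2.75% and 4.74%, and for let-7c 3.90%, 3.22% and 6.37%, so that DEX2 was the lowest and DEX3 the highest for both. Their log2 fold changes from control were 0.06 ± 0.30 and 0.10 ± 0.31 (SE), and the intervals of the ratio, 0.664 to 1.63 and 0.684 to 1.69, leave room for changes in either direction. DEX2 and DEX3 were also the libraries with the fewest assigned reads, 443564 and 403913, and the highest red-cell measure, -5.12 and -5.25. The part of either in these values was not tested. With the red-cell measure or log2 assigned reads as a covariate, 1 and 0 of all 366 names passed for this comparison, so those fits say nothing particular about the members. Over all alternatives run, the log2 fold change went from -0.86 to 0.80 for let-7a, from -1.44 to 0.80 for let-7f and from -0.57 to 0.41 for let-7i.

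For let-7e the order of libraries was different, with 0.0673% in DEX1 and 0.0442% and 0.0449% in DEX2 and DEX3. Its log2 fold change of 0.59 ± 0.37 (SE; limma adjusted p = 0.266) was the highest of any member against control, and its libraries overlapped the controls through ctrl5. The shares of let-7d were 0.139%, 0.111% and 0.148%, with a log2 fold change of 0.12 ± 0.23 (SE). The shares of let-7g were 0.244%, 0.211% and 0.315%, with a log2 fold change of -0.25 ± 0.23 (SE). Both overlapped the controls.

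For dextromethorphan against control 0 of 9 members passed, beside 12.0% of the names tested (44 of 366). An unadjusted p below 0.05 was found for 0 members and for 118 of the 366 names. The value was above 0 for 8 of 9 members, with a median of 0.15 beside 0.47 over all names tested, so the members' median lay below that of the table. The sign was not stable: 7 members changed sign under at least 1 alternative, and with median-of-ratios scaling the members' median was -0.26, that of all names then being 0.11. The smallest adjusted p was that of let-7a, which passed when DEX1 was left out, at 0.80 ± 0.26 (SE; limma adjusted p = 0.0424). In that fit 74 of 367 names passed (20.2%).

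The third comparison set both drugs against vehicle. The pattern again split by library for the most abundant guides. For let-7c the shares of reads were 2.43%, 5.12% and 4.72% in CAFDEX2, CAFDEX3 and CAFDEX6, and for let-7b they were 2.03%, 4.62% and 4.23%. CAFDEX2 was the lowest of all 12 libraries for both guides, and the other libraries of the group were within or above the control range. The log2 fold changes were -0.05 ± 0.31 and -0.03 ± 0.30 (SE), with limma adjusted p-values of 0.938 and 0.968.

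The guide let-7i was even across this group, at 1.16%, 1.07% and 1.11%, and all 3 libraries lay below all 3 controls. Its log2 fold change was -0.36 ± 0.23 (SE; limma adjusted p = 0.325). The guide let-7g was likewise below every control, at 0.267%, 0.245% and 0.242%, with a log2 fold change of -0.26 ± 0.23 (SE; limma adjusted p = 0.465). Shares of let-7a were 0.893%, 1.13% and 1.05%, and those of let-7f were 0.703%, 0.840% and 0.844%. Both overlapped the controls, with log2 fold changes of 0.21 ± 0.28 and -0.08 ± 0.34 (SE). The guide let-7d had 0.0981%, 0.117% and 0.116%, and miR-98 had 0.00736%, 0.0112% and 0.0112%. The log2 fold changes were -0.14 ± 0.23 and -0.30 ± 0.29 (SE), again with overlap. The guide let-7e had 0.0305%, 0.0814% and 0.0508%, its highest library of the series among them, and a log2 fold change of 0.56 ± 0.37 (SE; limma adjusted p = 0.334).

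For both drugs against control 0 of 9 members passed, beside 10.9% of the names tested (40 of 366). An unadjusted p below 0.05 was found for 0 members and for 103 of the 366 names. The value was below 0 for 7 of 9 members, with a median of -0.08 beside 0.24 over all names tested. For 2 of 9 members, let-7g and let-7i, all 3 libraries lay below all 3 controls, as they did for 58 names (15.8%) of the 366. Of the members, let-7e, let-7g, let-7i and miR-98 kept their sign under every alternative run. The other 5 each changed sign under at least 1. Across all 27 tests against control the intervals of the ratio ran from 0.475 to 2.59 at their widest bounds, at the low end for miR-98 with caffeine and at the high end for let-7e with dextromethorphan. For let-7g, the member with the smallest standard error, they ran only from 0.599 to 1.17.

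The caffeine and combination groups, the dextromethorphan and combination groups, and the 2 single-drug groups were also set against each other. These comparisons share libraries with those above. Against caffeine, the combination had values of 0.00 (let-7g) to 0.46 ± 0.28 (let-7a; SE; limma adjusted p = 0.793), with all 9 members above 0. For 1 of 9 members, let-7a, all 3 combination libraries lay above all 3 caffeine libraries, as they did for 13 names (3.55%) of the 366. Here 0 members passed, as did 0 of the 366 names (0%), of which 22 had an unadjusted p below 0.05. The members' median was 0.20 beside -0.11 over all names.

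Against dextromethorphan alone, the combination had values from -0.55 ± 0.29 (miR-98) to -0.01 ± 0.23 (let-7g; SE). For let-7i the value was -0.51 ± 0.23, with an interval of 0.498 to 0.985 on the ratio and a limma adjusted p of 0.287. The unadjusted p was below 0.05 for 1 of 9 members, let-7i, and for 59 of the 366 names. Of the 9 members 0 passed, beside 3.55% of the names tested (13 of 366), and the members' median of -0.26 was close to the -0.24 of all names. When DEX1 was left out, let-7i passed at -0.77 ± 0.21 (SE; limma adjusted p = 0.0433), in a fit in which 24 of 367 names passed (6.54%).

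Dextromethorphan against caffeine gave the greatest differences among these guides. The values were 0.75 ± 0.28 for let-7a, 0.74 ± 0.34 for let-7f, 0.71 ± 0.29 for miR-98 and 0.56 ± 0.23 for let-7i (SE), with limma adjusted p-values of 0.223, 0.328, 0.261 and 0.265. The ratio intervals of these 4 guides excluded 1 before adjustment, with lower bounds from 1.01 for let-7f to 1.12 for let-7a. Before adjustment 55 of the 366 names had a limma p below 0.05 in this comparison. All 3 dextromethorphan libraries lay above all 3 caffeine libraries for 2 of 9 members, miR-98 and let-7d, as they did for 45 names (12.3%) of the 366. Of the 9 members 0 passed, beside 2.46% of the names tested (9 of 366), and the members' median was 0.46 beside 0.12 over all names. Without DEX1 the guides let-7a (1.05 ± 0.26), let-7f (1.15 ± 0.30) and let-7i (0.81 ± 0.21) passed, with limma adjusted p-values of 0.0242, 0.0294 and 0.0266. In that fit 27 of 367 names passed (7.36%).

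The interaction asks whether the combination differs from the sum of the single-drug differences on the log2 scale. Member values ran from -0.32 ± 0.52 for let-7e to 0.25 ± 0.32 for let-7g (SE), and the lowest limma adjusted p was 0.766. Of the 9 members 0 passed, beside 4.64% of the names tested (17 of 366). The members' median was -0.05, while that of all names was -0.39.

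How the guides varied together was described by Pearson's r of log2(FPKM + 40) over the 12 libraries, which share scaling and depth. Of 36 pairs, 34 had a positive r and the median was 0.52. The closest pairs were let-7b with let-7c (0.96), which differ by G17A, and let-7a with let-7f (0.95), which differ by G12A. The pair of let-7i and miR-98 followed at 0.85 and let-7c with let-7d at 0.78. Copies of let-7b and let-7c are neighbours on chromosome 7, and copies of let-7a and let-7f on chromosome 17. The let-7d guide of the same chromosome 17 cluster had r of 0.60 with let-7a and 0.56 with let-7f. At the other end, let-7e had r of -0.47 with let-7g and -0.29 with let-7i. Pairs that differ by 1 base had a median r of 0.79, with let-7a and let-7e the lowest at 0.36. The median was 0.51 for the 10 pairs that differ by 2 bases, 0.44 for the 11 that differ by 3 and 0.67 for the 9 that differ by 4. The single pairs at 5 and 6 differences had -0.29 and 0.52. Short reads that fit more than 1 of these guides could be divided between them, and the recovered counts of let-7c, let-7e and let-7f were whole in 0 of 12 libraries.

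**Figure D4:**
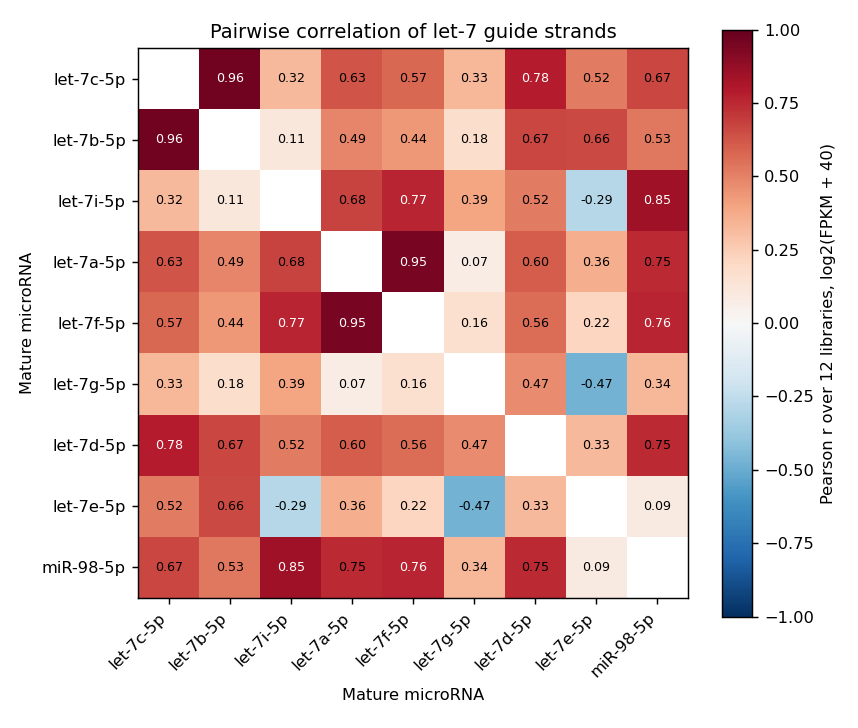
Pearson's r between guides over the 12 libraries on the log2(FPKM + 40) scale, shown as a coloured matrix. The blocks of let-7b with let-7c (0.96) and of let-7a with let-7f (0.95) are darkest, and let-7e with let-7g (-0.47) is lowest.

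Each hairpin also yields a strand from its other arm, the passenger strand, which is usually degraded. For most members little of it was found: the 3p strand made up 0.0281% of the hairpin's FPKM for let-7c, 0.0443% for let-7g, 0.0467% for let-7f, 0.0517% for let-7a, 0.0636% for let-7b and 0.0685% for let-7i. It made up 1.47% for miR-98 (0% to 2.99% over libraries) and 1.70% for let-7e (0.46% to 3.37%). These shares rested on few recovered reads of the 3p strand per library, 0 to 6 for miR-98 and 1 to 27 for let-7e. For let-7g they were 0 to 8. The exception was let-7d, for which the 3p strand was 70.5% ± 5.57 of the hairpin's FPKM (SD, n = 12), from 60.7% to 77.1%. The sequence of this strand is shown because it exceeded its guide, beside that of let-7a-1, again from RefSeq with bases 2 to 8 in capitals.
rno-let-7d-3p: cUAUACGAccugcugccuuucu
rno-let-7a-1-3p: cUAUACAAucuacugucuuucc
The let-7a-1 strand is identical to that of let-7c-2, and these names had equal values in every library.

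The let-7d-3p strand exceeded let-7d-5p in 12 of 12 libraries, by 1.55 times in DEX1 and in DEX3 and by 3.37 times in CAF4. Its shares of reads were 0.338%, 0.340% and 0.313% in control and 0.315%, 0.286% and 0.231% with caffeine. They were 0.215%, 0.265% and 0.230% with dextromethorphan and 0.269%, 0.292% and 0.250% with both drugs. All libraries of the dextromethorphan and combination groups lay below all controls, as they did for 26 names (7.10%) and 58 names of the 366, whereas the guide let-7d-5p overlapped the controls in each comparison. The log2 fold change of let-7d-3p was -0.49 ± 0.21 with dextromethorphan (SE; limma adjusted p = 0.124). It passed under 3 of 26 alternatives, all of them other scalings: -0.90 ± 0.21 with median-of-ratios scaling (limma adjusted p = 0.0150), -0.83 ± 0.23 with quantile normalization (0.0440) and -0.76 ± 0.22 when rescaled without miR-191a-5p (0.0424). The difference between the 2 strands in their response was not tested. Of 12 listed 3p strands, 8 could be tested, and 0 passed in any of the 7 comparisons, beside 0% to 12.0% of all names tested.

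**Figure D5:**
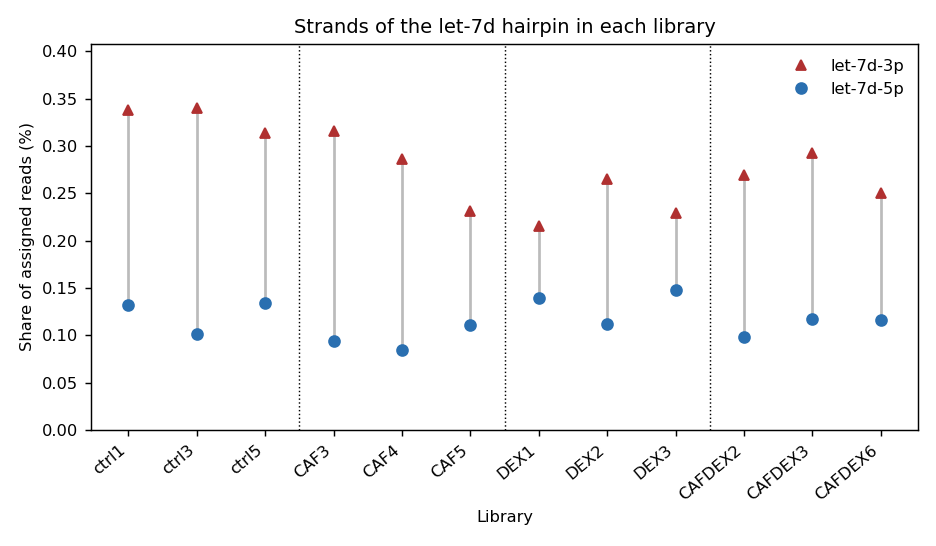
Share of assigned reads (%) of the let-7d-3p strand (triangles) and the let-7d-5p guide (circles) in each library, with dotted lines between the groups. The 3p strand lies above the guide in 12 of 12 libraries, and the distance is least in DEX1 and DEX3.

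Several let-7 genes lie in clusters with members of the miR-99/100 and miR-125 families, known to be made from common precursors in part. Of the 5 neighbours listed, 1 rose with caffeine, 0 with dextromethorphan and 1 with both drugs, where 25, 42 and 24 of the 366 names rose. The neighbour that rose was miR-125b-5p in both cases, a microRNA of the let-7a and let-7c clusters. Its shares of reads were 0.166%, 0.202% and 0.431% in control, 0.519%, 0.808% and 0.760% with caffeine, 0.631%, 0.435% and 0.516% with dextromethorphan and 0.422%, 1.04% and 0.493% with both drugs. It was above every control in each single-drug library, and CAFDEX2 overlapped ctrl5. With caffeine the other listed neighbours were also above every control, as were miR-99a-5p, miR-99b-5p and miR-125a-5p with dextromethorphan. How many of the 366 names did so was not counted, so this does not show a trait particular to the neighbours. The level of miR-125b-5p with caffeine was 2.81-fold that of control (log2 1.49 ± 0.37, SE; limma adjusted p = 0.0308), and with both drugs it was 2.47-fold (log2 1.30 ± 0.37, SE; limma adjusted p = 0.0423). The caffeine call was lost in 9 of 25 alternatives, among them without ctrl1 (limma adjusted p = 0.150) or without ctrl3 (0.151), CAF4 (0.102) or CAF5 (0.116). The call for both drugs was lost in 13 of 26, among them without ctrl1 (limma adjusted p = 0.175), ctrl3 (0.145), CAF4 (0.0501), CAF5 (0.0595), CAFDEX2 (0.0681) or CAFDEX3 (0.179). With dextromethorphan miR-125b-5p did not pass (log2 1.10 ± 0.37, SE; limma adjusted p = 0.0597), and it passed without ctrl5 (0.0155) or without CAFDEX3 (0.0327). The neighbours' median log2 fold change was 1.07 with caffeine, 0.99 with dextromethorphan and 0.45 with both drugs, beside -0.32, 0.15 and -0.08 for the 9 guides. Over all names tested the medians were 0.19, 0.47 and 0.24. The difference between the lists was not tested.

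Within the let-7e cluster the 3 microRNAs varied together. Over the 12 libraries r was 0.82 between let-7e and miR-99b-5p, 0.85 between let-7e and miR-125a-5p and 0.95 between miR-99b-5p and miR-125a-5p. The pattern of let-7e was thus closer to these neighbours than to any other guide, for which its highest r was 0.66 with let-7b. The FPKM ratio of miR-125a-5p to let-7e was 24.9, 33.2 and 19.96 in control, 43.1, 48.3 and 40.5 with caffeine, 46.0, 27.2 and 30.4 with dextromethorphan and 33.3, 43.3 and 26.6 with both drugs. It was above every control in each caffeine library and overlapped the controls in the other groups. The ratio was not tested. The log2 fold change of miR-125a-5p itself was similar in the 3 treated groups. It was 1.07 ± 0.43 with caffeine, 0.99 ± 0.43 with dextromethorphan and 0.96 ± 0.43 with both drugs (SE; limma adjusted p = 0.150, 0.123 and 0.154).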

How the data were processed

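Small RNA from 200 uL serum per sample was made into libraries with a kit that adds unique molecular indices, per the labels' protocols. The submitters' processing notes name the build rn6 and, in no stated order, DESeq2 1.20.0, Subread 2.0.1 with featureCounts, STAR 2.7.10a and cutadapt 3.7. The sources used here do not give whether indices were collapsed or how reads that fit several loci were divided. The deposited table holds the authors' FPKM values for 836 rows and 752 mature names, relative to the reads assigned to these rows, so a rise of one name lowers the others. Columns were matched to groups by name. Rows of 1 name were summed. The FPKM values are whole multiples of 0.01 read (tolerance 0.001), which gave the assigned reads and each share of reads; many counts are fractions, so no count test was the main test. With R 4.3.3 and limma 3.58.1, log2(FPKM + 40) was fitted over the 366 names above 0 in at least 3 libraries and with a mean of at least 80 FPKM. All 12 libraries entered 1 fit of group means with a mean-variance trend, tests were two-sided, and p-values were adjusted over the 366 names by Benjamini-Hochberg (threshold 0.05). Fold changes are on that log2(FPKM + 40) scale. The code was tested on simulated data. Summaries and plots used Python 3.11.15. Shares of the family and correlations have no test. The 9 members, the lists of 3p strands, neighbours and markers, and the tests were chosen with earlier results of these data known. All members are named, and of the lists those that pass and each member's 3p partner; the 5 names most and 3 least like the family's sum in r are named in the closing section, and let-7d-3p was singled out after its values were seen. Alternatives covered the pseudocount, the low-value filter, scaling, the libraries included, loci tested singly, a count model (voom) and covariates.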

Additional observations from a re-analysis of the deposited data

How the results depend on the processing

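Of 184 recounts of members passing under the alternatives, 181 gave 0, the main value. The others came from leaving out DEX1: over single libraries left out, the number of let-7 members passing ran from 0 to 1 for dextromethorphan against control (let-7a), from 0 to 1 for both drugs against dextromethorphan (let-7i) and from 0 to 3 for dextromethorphan against caffeine (let-7a, let-7f and let-7i). With miR-191a-5p, the most abundant name, left out of the total, the family's share of reads was 17.7% in control, 13.3% with caffeine, 16.6% with dextromethorphan and 14.9% with both drugs, so dextromethorphan no longer had the highest mean; the cause was not tested. Signs of member values changed in 0 of 234 values for caffeine against control, 34 of 243 for dextromethorphan, 12 of 243 for both drugs and 49 of 225 for the interaction. Median-of-ratios scaling moved the median of all names from 0.19 to -0.04 with caffeine, from 0.47 to 0.11 with dextromethorphan and from 0.24 to 0.09 with both drugs, and that of the members to -0.57, -0.26 and -0.25. Without DEX2 and DEX3, and with log2 assigned reads as a covariate, both chosen after seeing the data, the members' median for dextromethorphan against control was -0.08 and -0.51. The number of all names passing for caffeine against control ran from 4 to 65, for dextromethorphan from 0 to 74, for both drugs from 0 to 60, for both drugs against dextromethorphan from 0 to 24, for dextromethorphan against caffeine from 0 to 27 and for the interaction from 7 to 38. A fit of only the groups compared was not possible for the interaction, which needs all groups. No paired analysis was possible because the numbers in the column names differ from the replicate numbers of the labels and between groups. Depth limits miR-98 most: a single read of 22 bases amounts to 17.3 FPKM at the greatest depth (ctrl3) and 113 at the least (DEX3).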

Other observations

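Outside the family, the names whose log2(FPKM + 40) followed the summed let-7 guides most closely over the 12 libraries were miR-92b-5p (r = 0.91), miR-615 (0.75), miR-193b-5p (0.73), miR-196c-5p (0.73) and miR-125b-1-3p (0.73). The last is the 3p strand of a hairpin in a let-7a cluster. The most opposed were miR-146b-3p (-0.73), miR-29a-3p (-0.70) and miR-425-3p (-0.70). These names are the extremes of r among all tested names outside the family. Several were scarce: miR-92b-5p, miR-615, miR-196c-5p, miR-125b-1-3p and miR-146b-3p averaged 308, 587, 265, 688 and 279 FPKM. A single read of 22 bases amounts to 113 FPKM in DEX3. The r values describe libraries that share scaling and depth, and members with high shares of reads press other shares down.

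The table also lists rno-miR-3596a, rno-miR-3596b, rno-miR-3596c and rno-miR-3596d, names annotated on the strand opposite to let-7 loci. All 4 were listed at 0 in all 12 libraries.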
